A study of Mus musculus with 24 samples.

Results

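The sex difference in hepatic gene expression of mice without any Mup gene was examined in the 12 KO libraries of the series, 6 from mKO and 6 from fKO mice, out of 24 libraries in all. The libraries were chosen by genotype and sex in the labels, and only autosomal genes are counted and named, so that the sex chromosomes themselves do not enter. Both groups were homozygous for a CRISPR/Cas9 deletion of the whole Mup cluster on chromosome 4, with guide RNAs placed before Mup4 and after Mup21, and differed in sex alone by their labels. The mice were on the background that the labels spell C57/BL6N, were 12 weeks old, ate standard chow freely, received no compound, and went through a short fast, isoflurane anaesthesia and a microCT scan before the liver was taken. All KO mice descend from 1 founder male through crosses of heterozygous mice, so that the line rests on a single edited allele, and the stage of the oestrous cycle of the females is not given in the sources used here. The other 12 libraries, 6 mWT and 6 fWT mice of the same age and handling, are used only where the sex difference in KO mice is set beside that in WT mice.

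The liver of the adult mouse is one of the most sexually dimorphic organs outside the reproductive tract. Males release growth hormone in pulses and females more evenly, and hepatocytes read this rhythm through the growth hormone receptor, JAK2 and the transcription factor STAT5B, together with HNF4A, HNF6 and the sex-restricted regulators CUX2, made in female liver, and BCL6, higher in male liver. The best known outputs are cytochrome P450 enzymes, sulfotransferases and other enzymes of steroid and drug metabolism, and the Mup genes themselves, which encode pheromone-binding lipocalins made mainly by males.

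The labels were borne out by the counts. In 9 of the 12 KO libraries no read was assigned to a Mup gene, and the other 3 held 2, 10 and 11 reads, where WT libraries held 70768 to 741314. Reads of the Y-linked genes Ddx3y, Kdm5d and Eif2s3y were 0 in all fKO mice and at least 335 per gene in every mKO mouse. A further Y-linked gene, Uty, held 2 reads in all fKO mice together and at least 248 in every mKO mouse. Total counts of the KO libraries ranged from 15361901 to 26261394, and 3 counts, taken as the smallest detectable amount, corresponded to at most 0.199 reads per 1000000 counted (CPM). The defining hepatocyte markers (Alb, Apoa1, Tat, Hnf4a, Cps1 and a further plasma carrier) summed to between 95197 and 143828 CPM in the KO mice, and those of T cells, neutrophils, adipocytes and pancreatic acinar cells to at most 2.77 CPM. The share of mitochondrial reads was 4.99% to 6.78% in mKO and 4.45% to 6.15% in fKO mice (exact permutation test, 2-sided, p = 0.0952).

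Sex was the main axis of variation among mice without Mup. In a principal component analysis of the 12 KO mice over 11923 autosomal genes outside the Mup family, the first component held 52.4% of the variance and placed the males between −38.0 and −26.3 and the females between 26.9 and 38.5 (exact permutation test, 2-sided, p = 0.00216, the smallest value that 6 against 6 mice allow). The second component, with 11.7% of the variance, spread the mice within each sex and did not separate males from females (p = 0.877, exact permutation test). Female mouse 4 lay farthest out on the first component.

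**Figure D1:**
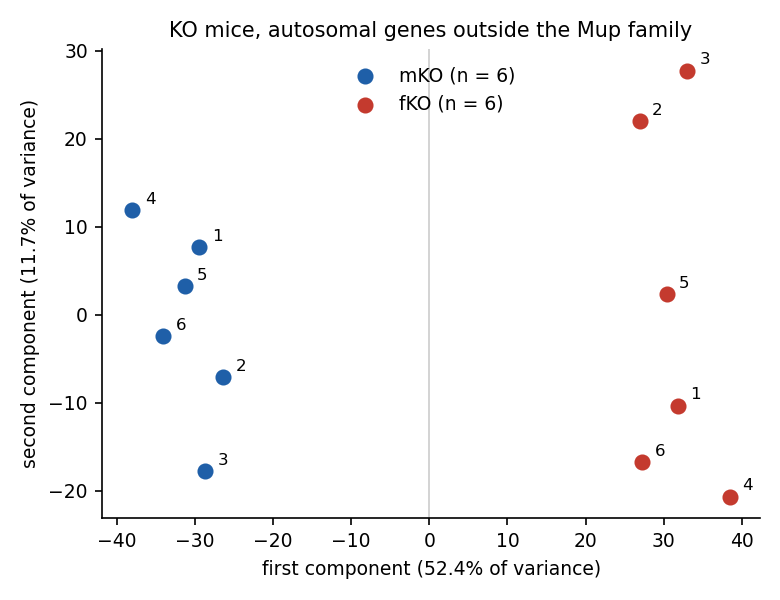
Scores of the 12 KO mice on the first (52.4% of variance, x axis) and second (11.7%, y axis) principal component of log2 CPM over 11923 autosomal genes outside the Mup family; blue points are mKO, red points fKO mice, and the numbers are the replicate numbers of the labels. The sexes lie apart on the x axis, males below −26 and females above 26, and overlap on the y axis.

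Of 11940 autosomal genes tested, 1710 differed between mKO and fKO mice at a Benjamini-Hochberg adjusted p-value under 0.05 in edgeR's quasi-likelihood test (14.3% of the genes tested). Of these, 872 (7.3%) were higher and 838 (7.02%) lower in mKO mice. At the unadjusted p-value under 0.01 that the study uses as its cut-off, 1885 genes (15.8%) passed. In 823 of the 1710 called genes (6.89% of all genes tested) the 6 males and the 6 females did not overlap, 433 of them higher (3.63%) and 390 lower in males (3.27%). Most differences were modest. The median size was 0.41 on the log2 scale among genes higher in mKO and 0.60 among genes lower in mKO mice, and 137 genes (1.15%) were at least 2-fold higher and 204 (1.71%) at least 2-fold lower. At the far end the balance was tilted towards females, with 11 genes (0.0921%) at least 32-fold higher and 25 (0.209%) at least 32-fold lower in mKO mice. Among the latter, the genes with no read in any male included Sult2a1, Sult2a2, Sult2a5, Sult3a2 and Cyp3a41b. Together, the genes called higher in mKO mice held a median of 16.5% of all CPM in mKO and 10.4% in fKO mice, and the genes called lower 9.15% and 13.8%. Nearly all calls were protein-coding genes (870 of the 872 higher and 833 of the 838 lower), as were 11775 of the 11940 genes tested.

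The male-biased P450 enzymes stood high in mKO mice. All 5 of the fixed list were called, with a median log2 difference of 4.45 against −0.0034 over all autosomal genes tested. This list and the 3 other lists of genes known for a sex bias were drawn up from general knowledge of mouse liver with results of these data known, so that their direction is not independent evidence. Cyp4a12a and Cyp4a12b are neighbouring, nearly identical genes on chromosome 4 that encode omega-hydroxylases of fatty acids, including arachidonic acid. In mKO mice Cyp4a12b (chr4:115411624-115439034, GRCm38) had a lowest, median and highest value of 81.2, 106 and 128 CPM, and in fKO mice of 0, 0.117 and 0.213 CPM, a log2 difference of 9.89 (SE 0.327, edgeR adjusted p = 1.05e-16). Cyp4a12a ranged from 323 over a median of 439 to 510 CPM in mKO and from 0.105 over 0.593 to 2.81 CPM in fKO mice (log2 difference 8.81, SE 0.436, edgeR adjusted p = 2.25e-12). Both genes were separated without overlap, but how reads shared by the 2 copies were assigned is not stated by the study. Cyp2d9, a steroid 16-alpha-hydroxylase and a classic marker of male mouse liver, read 1193, 1425 and 1588 CPM (lowest, median, highest) in mKO and 45.7, 59.0 and 97.9 CPM in fKO mice, a 21.9-fold difference (log2 4.45, SE 0.244, edgeR adjusted p = 3.88e-12). Every male lay far above every female. Cyp7b1, which hydroxylates oxysterols and steroids, differed by 2.93 (SE 0.272) and Cyp2u1, another fatty acid hydroxylase, by 2.55 (SE 0.316) on the log2 scale, again with no overlap.

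All 20 further genes of the male-bias list were called higher in mKO mice, with log2 differences from 0.69 to 10.19 and a median of 2.42. Elovl3, which elongates saturated and monounsaturated very long chain fatty acids, had a lowest, median and highest value of 281, 465 and 747 CPM in mKO and of 3.42, 8.85 and 18.0 CPM in fKO mice (log2 difference 5.61, SE 0.470, edgeR adjusted p = 2.45e-08). C6, a component of the terminal complement complex, read 261, 304 and 413 CPM in mKO and 8.89, 20.1 and 26.9 CPM in fKO mice (log2 difference 4.11, SE 0.253, edgeR adjusted p = 4.63e-11). Neither gene overlapped between the sexes. Hsd3b5, a 3-ketosteroid reductase of male liver, was 16.8-fold higher (196 to 503 against 3.21 to 35.9 CPM) and the pi-class glutathione S-transferase Gstp1 7.11-fold higher (547 to 778 against 76.1 to 107 CPM). The range within this list was wide. Moxd1, a monooxygenase-like gene, had the largest fitted difference among autosomal genes higher in mKO mice, 10.19, yet its values ran from 0 over a median of 1.52 to 49.8 CPM in mKO mice and the groups overlapped, since fKO mice held 1 read in all and at least 1 male none (ratio of summed rates 2222.84, exact 95% interval 399 to 87840, counting error only). Serpina1e, a male-biased alpha-1-antitrypsin, overlapped as well (2351 to 6439 against 74.0 to 2460 CPM, log2 difference 1.93, SE 0.580, edgeR adjusted p = 0.0283), and its adjusted p rose to between 0.0551 and 0.0597 without any 1 of mKO mice 4 and 6 or fKO mice 1 and 6, and to 0.120 when each genotype was fitted on its own. The Serpina1e call was lost as well with the replicate number as a block.

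The rule for the largest folds brought in several genes higher in mKO mice that are not on these lists. The N-acetyltransferase-like genes Nat8, Nat8f5 and Nat8f6 lie side by side on chromosome 6. Nat8, which acetylates cysteine conjugates, read 12.9, 15.3 and 24.9 CPM (lowest, median, highest) in mKO and 0.319, 0.537 and 0.638 CPM in fKO mice (log2 difference 5.02, SE 0.269, edgeR adjusted p = 5.54e-13). Nat8f5 (5.82 to 16.7 against 0 to 0.425 CPM) differed by 6.47 (SE 0.529), and Nat8f6 gave 240 reads in mKO and 3 in fKO mice (ratio 87.0, exact 95% interval 29.4 to 425). The annotated spans of Nat8f5 and Nat8f6 overlap on the same strand, so the 2 cannot be cleanly told apart. Asns, the asparagine synthetase, read 5.83, 10.1 and 20.5 CPM in mKO and 0.160, 0.226 and 0.532 CPM in fKO mice (log2 difference 5.37, SE 0.540, edgeR adjusted p = 2.54e-07). Scara5, a ferritin receptor, was higher by 5.10 (SE 0.819) and Grm8, a metabotropic glutamate receptor present at only 0.530 to 1.71 CPM in mKO mice, by 4.20 (SE 0.534). Obp2a, one of the 20 listed genes and a lipocalin of the odorant-binding family outside the deleted cluster, was among the largest folds too. It lay between 2.65 and 5.44 CPM in mKO mice, while fKO mice held 2 reads in all, both in 1 mouse (ratio 237, exact 95% interval 65.1 to 1959, edgeR adjusted p = 9.97e-07).

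Among abundant transcripts the differences were smaller in fold and larger in reads. Scd1, the main hepatic delta-9 desaturase, read 10992 to 20580 CPM, with a median of 15398, in mKO mice and 2428 to 9409, with a median of 5564, in fKO mice (log2 difference 1.43, SE 0.372, edgeR adjusted p = 0.0117). The lowest male was above the highest female, which the rule that named this gene required. Car3, a muscle-type carbonic anhydrase also abundant in male liver, was 2.56-fold higher (3254 to 4449 against 1226 to 1764 CPM) and Scp2, the sterol carrier protein of peroxisomes, 2.69-fold higher (2635 to 3235 against 933 to 1205 CPM). Serpina1c was 1.52-fold higher (log2 0.60, SE 0.0907, edgeR adjusted p = 2.73e-05). The contrapsin gene Serpina3k was 1.36-fold higher (log2 0.45, SE 0.144, edgeR adjusted p = 0.0369), a call that was lost without any 1 of 8 mice (mKO 1, 3, 4 and 6, fKO 1, 3, 4 and 5, adjusted p 0.0507 to 0.0920). With the replicate number as a block the Serpina3k call was lost too. Serpina1 and Serpina3 genes have close copies, so that their counts are uncertain.

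**Figure D2:**
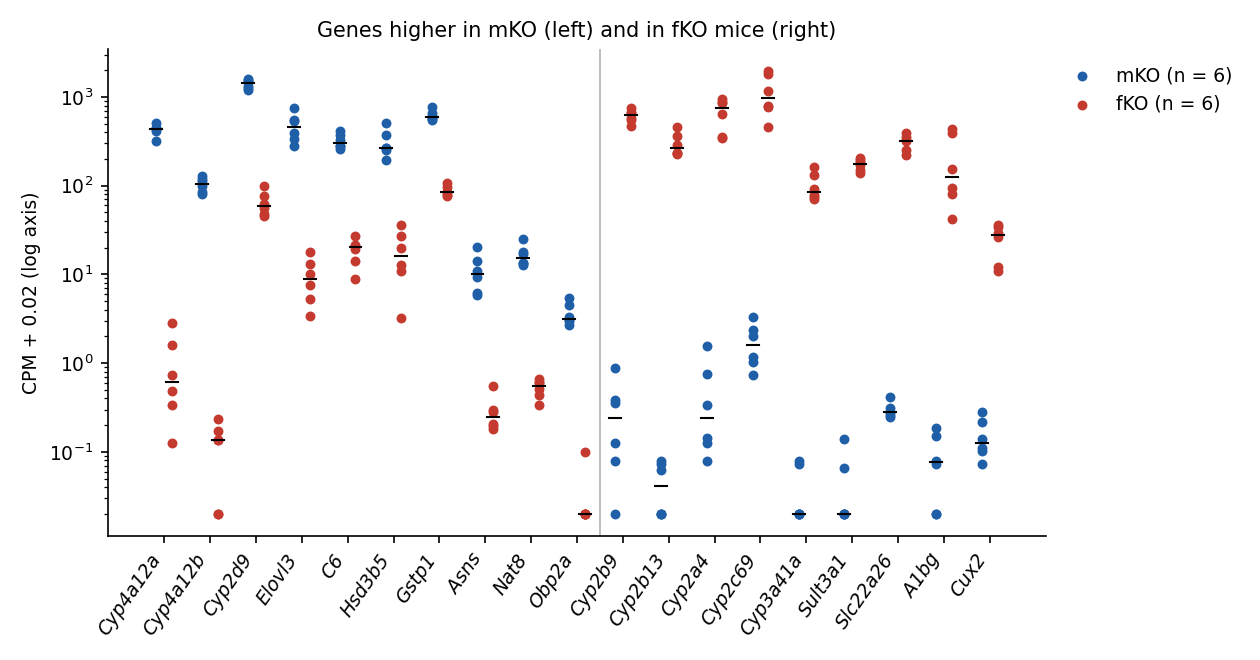
CPM of strongly dimorphic autosomal genes in each KO mouse on a log axis, after 0.02 was added so that values of 0 can be drawn; blue points are the 6 mKO, red points the 6 fKO mice, and black bars the medians. Left of the line every mKO mouse lies above every fKO mouse, and right of it every fKO mouse lies above every mKO mouse.

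Several female-biased P450 enzymes were at or near 0 in males, while others of the list were well expressed in both sexes. Of 16 tested genes of the list, 14 were called lower in mKO mice, 0 higher and 2 were not called, with a median log2 difference of −8.09. Cyp2b9 and Cyp2b13 lie next to each other on chromosome 7 and encode testosterone-metabolising enzymes of female liver. Cyp2b9 (chr7:26173411-26210661) had a lowest, median and highest value of 468, 623 and 747 CPM in fKO and of 0, 0.219 and 0.869 CPM in mKO mice (log2 difference −11.00, SE 0.354, edgeR adjusted p = 1.05e-16). Cyp2b13 lay between 231 and 458 CPM in fKO mice and gave 3 reads in all mKO mice together against 36933 in fKO mice, a ratio of 11320.5 (exact 95% interval 3873 to 54897, counting error only). Cyp2a4, a testosterone 15-alpha-hydroxylase, read 348, 749 and 951 CPM in fKO and 0.0594, 0.221 and 1.56 CPM in mKO mice (log2 difference −10.40, SE 0.468, edgeR adjusted p = 3.61e-13). On chromosome 19, Cyp2c69 read 457, 972 and 1945 CPM in fKO and 0.713, 1.58 and 3.29 CPM in mKO mice (log2 difference −9.32, SE 0.675, edgeR adjusted p = 2.22e-09). None of these overlapped between the sexes.

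The female Cyp3a genes form a cluster on chromosome 5. Cyp3a41a ranged from 70.1 over a median of 85.0 to 163 CPM in fKO mice and gave 2 reads in mKO mice (ratio 5704.85, exact 95% interval 1579 to 47112). Cyp3a16 was more variable among females, from 3.27 over 36.8 to 140 CPM, and also gave 2 reads in males (ratio 2703, interval 748 to 22325). Cyp3a44 read 59.7, 88.9 and 132 CPM in fKO and at most 0.125 CPM in mKO mice, and Cyp3a41b was at 0 in every mKO mouse, at least 144-fold lower when the floor of 3 counts is taken over the group. The copies are so alike that a read can often not be placed in 1 of them. The 2 genes of the list that were not called were Cyp4a10 (169 to 668 CPM in mKO and 319 to 907 in fKO mice, log2 difference −0.64, SE 0.409) and Cyp4a14 (56.2 to 687 against 189 to 599 CPM, log2 difference −0.40, SE 0.723), omega-hydroxylases that respond to PPAR alpha. Cyp7a1, the rate-limiting enzyme of bile acid synthesis, was the weakest of the called ones in its test (50.8 to 248 against 104 to 667 CPM, log2 difference −1.56, SE 0.467, edgeR adjusted p = 0.0279). Its groups overlapped and the call was lost without any 1 of 7 mice (mKO 1, 2, 3, 5 and 6, fKO 1 and 4, adjusted p 0.0507 to 0.0772) and when each genotype was fitted on its own (0.0623).

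Sequence next to the start of female-biased genes was looked at because whole groups of neighbours were silent together. The RefSeq promoter windows of GRCm38.p6, 250 bases before to 50 after the start, were searched on both strands for an HNF4A motif (CAAAGTCCA), a STAT5 motif (TTCNNNGAA) and an HNF6 motif (ATCGAT). Windows were at hand for 9200 of the 11940 genes tested, 1306 of the 1710 called, and 20 of 29 genes at least 8-fold higher (0.243% of those tested) and 27 of 36 at least 8-fold lower (0.302%) in mKO mice. The HNF4A motif was in 0.475% of all 32851 windows and 0.685% of those of genes tested, in 1 of the 20 (Nat8) and in 5 of the 27 (Cyp2c40, Cyp2c69, Cyp3a16, Cyp3a41a and Cyp3a41b), which are related copies at 2 places in the genome. The STAT5 motif was in 8.3% of all windows, 8.58% of those of genes tested, 1 of the 20 and 4 of the 27 (A1bg, Hamp2, Slc22a26 and Sult3a1). The HNF6 motif was in 0.925% of all windows, 0.88% of those of genes tested, in 1 of the 20 (Moxd1) and in 1 of the 27 (Cux2). Over all called genes with a window, the HNF4A motif was about equally frequent in both directions. It was in 9 of 690 genes higher (1.3%) and 7 of 616 lower (1.14%) in mKO mice. The same shares were 6.67% and 9.9% for the STAT5 motif and 1.45% and 0.487% for the HNF6 motif. The promoters of 5 genes are shown, since their genes are among the most female-biased and hold a match close to the start: each line gives the 150 bases before the RefSeq start, 5′ to 3′ on the strand of the gene, with the match in capitals.
Cyp3a16, chr5:145469724-145469873, minus strand, HNF4A motif: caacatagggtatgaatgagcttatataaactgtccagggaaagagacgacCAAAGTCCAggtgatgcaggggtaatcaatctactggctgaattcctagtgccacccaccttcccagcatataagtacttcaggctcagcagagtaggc
Cyp3a41a, chr5:145720137-145720286, minus strand, HNF4A motif: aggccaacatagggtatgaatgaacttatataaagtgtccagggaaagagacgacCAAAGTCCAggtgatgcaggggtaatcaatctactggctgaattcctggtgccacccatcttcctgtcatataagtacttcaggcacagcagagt
Cyp2c69, chr19:39886770-39886919, minus strand, HNF4A motif: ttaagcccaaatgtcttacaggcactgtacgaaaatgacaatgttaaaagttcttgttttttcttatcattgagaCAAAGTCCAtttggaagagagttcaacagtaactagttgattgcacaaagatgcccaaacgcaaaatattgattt
Sult3a1, chr10:33857572-33857721, plus strand, STAT5 motif: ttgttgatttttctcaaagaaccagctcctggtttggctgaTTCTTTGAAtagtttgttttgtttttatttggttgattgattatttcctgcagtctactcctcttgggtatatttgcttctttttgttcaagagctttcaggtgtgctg
A1bg, chr15:60921271-60921420, minus strand, STAT5 motif: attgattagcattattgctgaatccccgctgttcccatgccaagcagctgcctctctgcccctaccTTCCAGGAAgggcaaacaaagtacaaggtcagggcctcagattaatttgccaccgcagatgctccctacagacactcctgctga

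The matches began 99 bases (Cyp3a16), 95 (Cyp3a41a), 75 (Cyp2c69), 109 (Sult3a1) and 84 (A1bg) before the start. The whole windows of Cyp3a16 and Cyp3a41a were 92.4% identical in a global alignment, those of Cyp3a41a and Cyp3a41b 97.3%, and those of Cyp2b9 and Cyp2b13 99.3%. Sult3a1 and its silent neighbour Sult3a2 shared only 48.6%. A match is a description of these letters and not of binding.

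Female-biased genes outside the P450 family followed the same form. Of 18 tested genes of the second female list, 14 were called lower in mKO mice and 0 higher, with a median log2 difference of −1.85, and Apoa4, Cd36, Npr2 and Rtn4rl1 were not called. A1bg, a plasma glycoprotein of the immunoglobulin superfamily, had a lowest, median and highest value of 42.2, 125 and 431 CPM in fKO and of 0, 0.0562 and 0.166 CPM in mKO mice (log2 difference −11.37, SE 0.849, edgeR adjusted p = 3.91e-09). The females varied widely among themselves without touching the males. Cux2, the transcriptional repressor restricted to female liver, read 10.9, 27.8 and 35.7 CPM in fKO and 0.0527, 0.105 and 0.265 CPM in mKO mice (log2 difference −7.50, SE 0.552, edgeR adjusted p = 1.7e-09). The prolactin receptor gene Prlr was 4.36-fold lower in mKO mice (94.4 to 141 against 405 to 650 CPM, SE of the log2 difference 0.139), and Hao2, a peroxisomal hydroxyacid oxidase, 138-fold lower (at most 0.238 against 5.08 to 28.7 CPM).

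The sulfotransferases, which add sulfate to steroids, bile acids and drugs, were mostly female-biased. Of 15 tested genes of the list, 11 were called lower and 1 higher in mKO mice, with a median log2 difference of −0.99. Over all autosomal genes tested, 7.02% were lower and 7.3% higher. Sult3a1, an amine sulfotransferase, read 139, 177 and 203 CPM (lowest, median, highest) in fKO mice and gave 3 reads in all mKO mice against 21840 (ratio 6694.28, exact 95% interval 2290 to 32464, edgeR adjusted p = 6.07e-19). Sult2a1, Sult2a2 and Sult2a5, hydroxysteroid sulfotransferases side by side on chromosome 7, gave 0 reads in every mKO mouse and were at least 911-fold, 844-fold and 386-fold lower. Among females they were uneven, with Sult2a1 from 3.73 over a median of 17.8 to 81.9 CPM. The exception was Sult2a8 of the same subfamily, which was higher in mKO mice (886 to 1515 against 684 to 875 CPM, log2 difference 0.54, SE 0.105, edgeR adjusted p = 0.000675).

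Among called genes whose groups did not overlap, the 5 largest CPM differences towards females were mostly in plasma proteins. C3, the central complement component, read 9620 to 12525 CPM in fKO and 5417 to 7156 CPM in mKO mice, a log2 difference of −0.81 (SE 0.0949, edgeR adjusted p = 6.69e-07). Transferrin (Trf) differed by −0.42 (SE 0.0905) and fetuin A (Ahsg) by −0.59 (SE 0.0949), and the plasma carboxylesterase Ces1c by −0.80 (SE 0.0643, edgeR adjusted p = 7.46e-10). For each of the 4 the lowest female lay above the highest male, which the rule that named them required. Among all 22 tested complement genes, 5 were higher (C6, C8a, C8b, C9 and Susd4) and 4 lower in mKO mice (C3, Cfb, Cfi and Mbl2). That is 40.9% of the list called, against 14.3% of all genes tested. C6, C8a, C8b and C9 are parts of the terminal membrane attack complex, and Susd4 encodes an inhibitor of the cascade.

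Some called genes were neighbours. Of 11921 pairs of adjacent tested autosomal genes, both members were called in 382 (3.20%). This is a share of pairs and is not to be compared directly with the 14.3% of single genes called. Of the 382 pairs, 289 (75.7%) differed in the same direction, and 12 runs of at least 4 adjacent genes were called the same way throughout. They included the Cyp3a genes of chromosome 5 (4 genes, log2 differences −12.07 to −9.24), the Sult2a genes (5 genes, −11.96 to −8.65) and the Cyp2b to Cyp2g1 genes of chromosome 7 (5 genes, −13.19 to −2.02), and the Cyp2c genes of chromosome 19 (6 genes, −9.32 to −0.28). Runs higher in mKO mice included the carboxylesterases Ces2a, Ces2b, Ces2c and Ces2e of chromosome 8 (0.50 to 3.92). A run of 11 genes lower in mKO mice on chromosome 1 (−0.43 to −0.22) held 9 Ugt1a genes, whose transcripts share exons and cannot be counted apart.

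Other enzyme families split between the sexes. Among 19 glutathione S-transferases 7 were called higher and 3 lower in mKO mice (median log2 difference 0.28), led by Gstp2, Gstp1 and Gsta1. Of 10 UDP-glucuronosyltransferases 4 were higher, among them Ugt2b38 (2.24) and Ugt2b1 (0.98), and 1 lower, Ugt2b37 (−2.91). The steroid dehydrogenases and reductases gave 5 higher, among them Srd5a1, the steroid 5-alpha-reductase (1.14, SE 0.151), and 2 lower of 13. Of 22 transporters 3 were higher, including the organic anion carrier Slco1a1 (629 to 936 against 115 to 418 CPM), and 6 lower. Slc22a26, an organic anion transporter, was the most extreme, at 221, 322 and 392 CPM (lowest, median, highest) in fKO and 0.229, 0.264 and 0.398 CPM in mKO mice (log2 difference −10.09, SE 0.209, edgeR adjusted p = 1.44e-22), with little spread in either sex. The multidrug transporter gene Abcb1a was 5.83-fold lower in mKO mice. Serpins of the A1 and A3 clusters gave 4 higher and 4 lower of 14. The counts of these families are to be read against the 7.3% higher and 7.02% lower of all autosomal genes tested.

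Of 19 tested genes of the growth hormone pathway 0 were called higher and 3 lower in mKO mice (15.8%, near the 14.3% of all genes): Cux2, Igfals and Igf1. The transcripts of Ghr, Jak2, Stat5a, Stat5b, Hnf4a, Onecut1 (HNF6) and Cebpa differed by 0.20, 0.00, −0.20, −0.05, 0.07, 0.06 and 0.02 on the log2 scale, none called. Igfals, the acid-labile subunit that carries IGF1 in plasma, was lower (42.0 to 46.8 against 60.8 to 81.0 CPM, log2 difference −0.64, SE 0.141, edgeR adjusted p = 0.00251), and Igf1 by −0.30 (SE 0.102, edgeR adjusted p = 0.0467), a call lost without any 1 of 15 libraries, 8 of KO and 7 of WT mice (adjusted p 0.0503 to 0.115), with no filter on low counts (0.0580) and when each genotype was fitted on its own (0.0715). With the replicate number as a block the Igf1 call was lost too. Bcl6 was 1.66 higher and Socs2 1.39 lower in fitted log2 terms without passing the test. Of 6 tested hormone receptors 2 were lower, Prlr and the oestrogen receptor gene Esr1, which read 11.4, 13.6 and 20.3 CPM (lowest, median, highest) in mKO and 49.0, 60.0 and 76.5 CPM in fKO mice (log2 difference −2.05, SE 0.253, edgeR adjusted p = 4.97e-06).

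The lipid and sterol lists ranged from 4.76% called (cholesterol synthesis) to 47.1% (bile acid genes). Of 19 genes of fatty acid synthesis 3 were higher (Scd1, Elovl3 and the malic enzyme Me1) and 1 lower (the desaturase Fads1), while Fasn, Acaca, Acly and Srebf1 differed by 0.06, −0.18, 0.16 and −0.11, none called. In fatty acid uptake and triglyceride storage 6 of 24 were higher and 2 lower. Lipoprotein lipase (Lpl) read 19.8, 23.9 and 35.5 CPM (lowest, median, highest) in mKO and 5.32, 8.70 and 13.4 CPM in fKO mice (log2 difference 1.59, SE 0.227, edgeR adjusted p = 2.42e-05). The lipid droplet protein gene Plin2 was 1.41-fold and the monoacylglycerol acyltransferase gene Mogat1 3-fold higher, and Vldlr was lower (log2 difference −1.64). In cholesterol synthesis 0 of 21 were higher and 1 lower (Hsd17b7, −0.53), although the median of the list was −0.45. Of 17 bile acid genes 5 were higher, including the 12-alpha-hydroxylase gene Cyp8b1 (0.98, SE 0.259), and 3 lower. Fatty acid oxidation and PPAR alpha targets gave 4 higher and 2 lower of 26, and glucose production and glycolysis 0 higher and 1 lower (Irs2) of 15. The call of Me1 was lost without any 1 of mKO 4 and 5 and fKO 3 (edgeR adjusted p 0.0507 to 0.0839), and that of Irs2 without any 1 of mKO 1, 3, 4 and 5 and fKO 2, 3 and 4 (0.0579 to 0.104) and with no filter on low counts (0.0584). Both calls were also lost with the replicate number as a block. The shares of these lists are to be read against the 14.3% of all genes called.

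Zonation genes were called at the share of all genes (14.3%). Of 14 periportal genes 2 were higher (Cyp2f2 and Hsd17b13) and of 14 pericentral genes 2 lower (Glul, the glutamine synthetase, −0.50, SE 0.110, and Slc1a2). Of 17 clock genes 1 (5.88%) was called (Bhlhe41). The call of Hsd17b13 was lost without any 1 of mKO 2, 3 and 5 and fKO 2, 3 and 5 (edgeR adjusted p 0.0536 to 0.0733), and that of Bhlhe41 without any 1 of mKO 2 and 3 and fKO 2, 3 and 4 (0.0547 to 0.100) and with no filter on low counts (0.0502). With the replicate number as a block the Bhlhe41 call was lost too. Of 20 genes of endoplasmic reticulum chaperones and secretion 0 were called and the median log2 difference was 0.06. At an unadjusted p under 0.01 this list also gave 0. The cell cycle list gave 1 call of 15, cyclin D1 (Ccnd1, 11.9 to 18.8 against 44.9 to 148 CPM, log2 difference −2.54, SE 0.262, edgeR adjusted p = 3.73e-07). Of 13 carriers of small lipophilic ligands other than Mup, 3 were higher, with Obp2a far ahead, and 5 lower, among them the corticosteroid-binding globulin gene Serpina6 (178 to 228 against 401 to 662 CPM, log2 difference −1.30, SE 0.136).

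Interferon-stimulated genes gave calls to the female side alone. Of 18 tested, 8 (44.4%) were lower and 0 higher in mKO mice, with a median log2 difference of −0.35. This and the counts below are to be read against the 7.02% lower and 7.3% higher of all autosomal genes tested. Gbp2, a guanylate-binding protein, read 1.69, 3.53 and 4.28 CPM (lowest, median, highest) in mKO and 5.67, 7.29 and 9.52 CPM in fKO mice (log2 difference −1.14, SE 0.239, edgeR adjusted p = 0.00157). Antigen presentation genes gave 1 higher (H2-Q10) and 3 lower of 14 (28.6% called). Markers of non-parenchymal cells moved the same way in part: 4 of 7 stellate cell markers (Lrat, Ecm1, Dcn and Colec10) and 2 of 7 sinusoidal endothelial markers (Bmp2 and Stab2) were lower in mKO mice, their summed levels being 269 to 360 against 349 to 459 CPM and 144 to 174 against 159 to 220 CPM. The median log2 difference was −0.33 for the stellate and −0.19 for the endothelial markers. None of 6 tested autosomal Kupffer cell markers was called, although all 6 had negative log2 differences (−0.60 to −0.35, median −0.45). The sum of all 7 Kupffer cell markers, which takes in the X-linked Vsig4, was 75.7 to 213 against 120 to 215 CPM. The highest male, mKO 1, was far above the next at 110 CPM. T cell markers summed to at most 2.77 CPM. All 4 tested globin genes were higher in mKO mice. Together with Slc4a1 they summed to 54.3 to 107 against 31.7 to 44.4 CPM. The alpha and the beta globin genes are each close copies, so that their counts are uncertain. In bulk liver RNA fewer cells of a type and less RNA per cell cannot be told apart, and the part of these cells in the results was not tested.

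**Figure D3:**
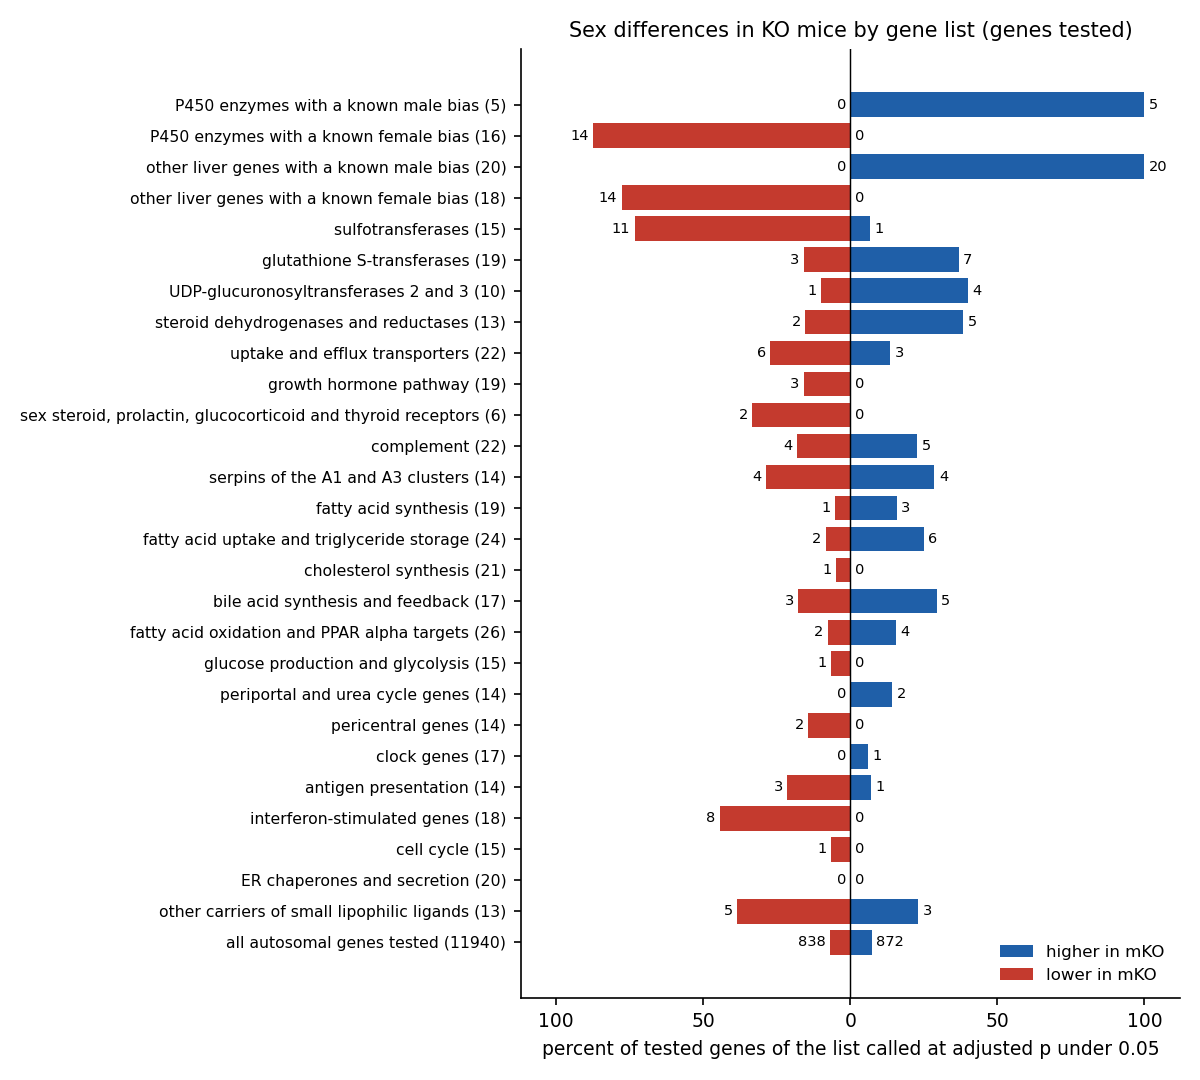
Share of the tested genes of each list shown that were called at an adjusted p under 0.05, higher in mKO mice to the right (blue) and lower to the left (red); numbers at the bars are gene counts, and the number tested is in parentheses. The lists of known male and female bias reach far to 1 side, and the bottom bar gives the 872 and 838 calls among all 11940 autosomal genes tested.

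The sex difference was then set beside that of WT mice, which shares no mouse with it, although the fit shares its estimates of spread. In WT mice 2044 autosomal genes (17.1%) differed, 1012 higher (8.48%) and 1032 lower (8.64%) in mWT, and 14 of the 17 Mup genes tested were among them. Of the 1710 genes called in KO mice, 1013 (59.2%) were also called in WT mice in the same direction, which is 49.6% of the WT calls, and 0 were called in opposite directions. Of 697 genes called only in KO mice, 639 (91.7%) had a WT difference of the same sign, and of 1031 called only in WT mice 957 (92.8%) a KO difference of the same sign. Over all autosomal genes the log2 differences in KO and WT mice had a Pearson correlation of 0.88 and a Spearman correlation of 0.68, given as a description since genes are not independent replicates.

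**Figure D4:**
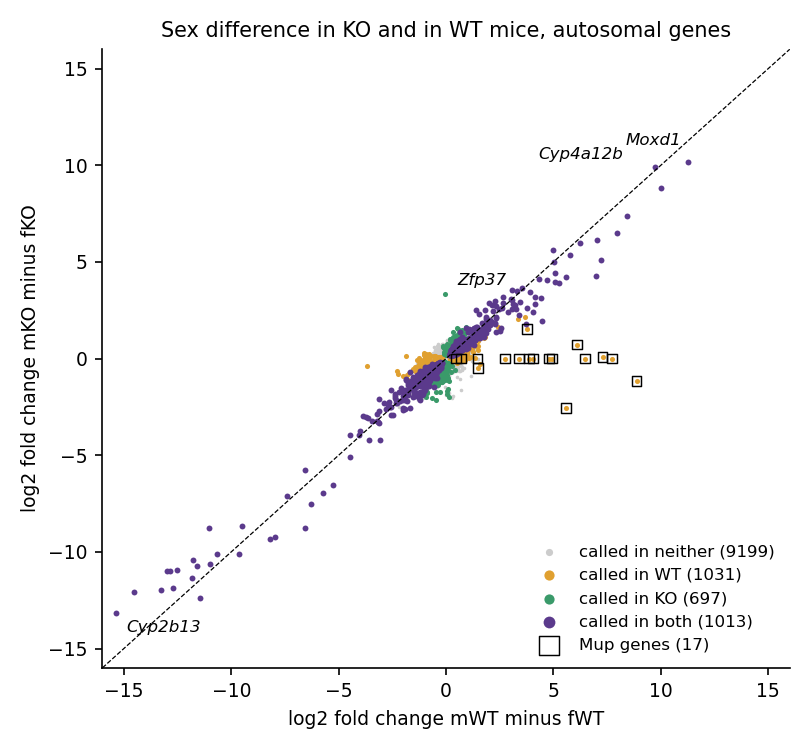
Log2 fold change mWT minus fWT (x axis) against mKO minus fKO (y axis) for the 11940 autosomal genes tested; colours give the genotype in which a gene was called, open squares mark the 17 Mup genes, and the dashed line marks equal differences. Genes called in both (1013) lie along the line, Zfp37 stands above it at 3.36 in KO and −0.05 in WT mice, and most Mup genes lie near 0 in KO mice.

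Most genes of the lists of known sex bias were called in both genotypes. These lists were drawn up with results of these data known, so that this is not independent evidence. All 25 genes of the 2 male-bias lists were called higher in males of both KO and WT mice, and 27 of the 34 tested genes of the 2 female-bias lists were lower in males of both. Some other lists had more calls in WT mice, as did all autosomal genes tested (17.1% called, against 14.3% in KO mice). Of 20 chaperone and secretion genes tested, 0 were called in KO and 4 higher in mWT mice (Atf6, Manf, Dnajb9 and Creld2). The log2 difference of Creld2 was 0.91 in WT and 0.13 in KO mice. Of 18 interferon-stimulated genes tested, 8 were lower in males in KO and 13 in WT mice. For the 14 antigen presentation genes tested these counts were 3 and 8. Fatty acid uptake and triglyceride storage (24 genes tested) had more calls in KO mice, with 6 higher and 2 lower against 2 higher and 1 lower. None of the genes in any of these lists passed the test of the difference between the sex effects after adjustment, so that unequal counts do not show unequal sex effects.

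A gene called in 1 genotype only is not thereby shown to differ, and the test of the difference between the sex effects found little. At an adjusted p under 0.05 in edgeR's quasi-likelihood test 1 of 11940 autosomal genes passed (0.00838%). At an unadjusted p under 0.01 there were 138 (1.16%), where 1% of the genes would be 119.4, and under 0.05 there were 710, where 5% would be 597. The precision was limited, with a median standard error of 0.16 for this difference on the log2 scale. DESeq2 called 10 genes, of which 6 were Mup genes and the others Zfp37, Slc16a12, Esr1 and Gm4788. The 6 Mup genes, with almost no reads in KO mice, had an unadjusted p from 0.0241 (Mup7) to 0.9998 (Mup1) in edgeR's test. That test thus missed differences of genes known to be deleted. Other genes with almost no reads in 1 genotype may have been missed alike.

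The single gene was Zfp37, a KRAB zinc finger gene at chr4:62189540-62231047, next to the deleted cluster, whose annotated Mup genes span chr4:59956804-62150863. It read 2.53, 4.24 and 6.27 CPM (lowest, median, highest) in mKO mice and 0.213, 0.393 and 0.705 CPM in fKO mice. In WT mice it read 0.176 to 0.509 CPM in males and 0.133 to 0.715 CPM in females. Only the mKO mice stood apart, and the other 3 groups overlapped. The log2 sex difference was 3.36 (SE 0.300, edgeR adjusted p = 5.75e-09) in KO and −0.05 (SE 0.404) in WT mice, and the difference between them 3.40 (SE 0.511, edgeR adjusted p = 0.00562). Of 23 tested genes within 1 Mb of the cluster 5 were called between mKO and fKO mice (21.7%, against 14.3% of all genes): Ugcg, E130308A19Rik, Zfp37, Slc31a1 and Rgs3. In WT mice 3 of the 23 were called, among them Ugcg and E130308A19Rik.

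The next genes in this test did not pass after adjustment. Slc16a12, a creatine transporter, read 57.8 to 70.9 CPM in mKO and 97.3 to 153 CPM in fKO mice without overlap, while WT males and females overlapped (difference between the sex effects −0.80, SE 0.175, edgeR adjusted p = 0.620). Tpst1, a tyrosylprotein sulfotransferase, and Gm4788, a complement factor H-related gene, were called higher in males in WT and not in KO mice (differences −0.60 and −0.72, edgeR adjusted p = 0.620 each). Slc3a2, the heavy chain of amino acid exchangers, was lower in males of the WT (−0.55, SE 0.0689) and differed less in KO mice (−0.14, SE 0.0683). For Esr1 the sex difference was −2.05 in KO and −0.65 in WT mice (difference −1.39, SE 0.347, edgeR unadjusted p = 0.000598, adjusted p = 0.745). Cyp4a14, strongly female-biased in WT mice (−3.69, SE 0.807), was −0.40 in KO mice (difference 3.28, SE 1.05, edgeR unadjusted p = 0.00529, adjusted p = 0.816), and Cyp7a1, at 0.08 in WT mice, was −1.56 in KO mice (difference −1.64, SE 0.649, edgeR adjusted p = 0.823). Slc13a5, a citrate transporter named after its values were seen, was 0.02 in WT and −1.81 in KO mice (edgeR unadjusted p for the difference 0.000901, adjusted p = 0.745).

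**Figure D5:**
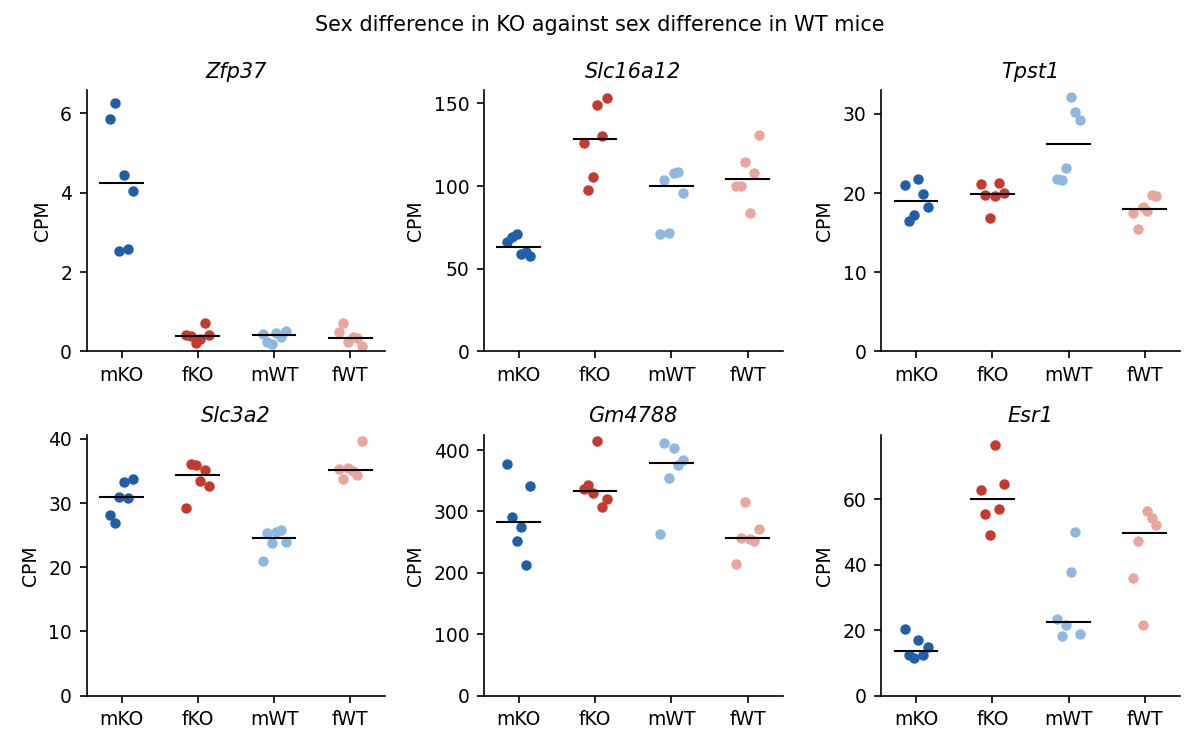
CPM per mouse (y axes from 0) of the 5 genes with the lowest p for the difference between the sex effects, and of Esr1, in mKO, fKO, mWT and fWT mice; each point is 1 mouse (n = 6 per group) and black bars are medians. Zfp37 is high in mKO mice alone (2.53 to 6.27 CPM, all other mice at most 0.715), and Slc16a12 separates the sexes in KO but not in WT mice.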

How the data were processed

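Hepatic RNAseq libraries of 24 mice, 1 per mouse and 6 per group, were read from one end over 100 bp. After fastp 0.20 trimming, STAR 2.7a alignment (GRCm38.p6) and featureCounts assignment to Ensembl genes by the authors, the deposited values are raw counts, not normalized or filtered. The annotation release, the strand setting and the handling of reads that map to several places are not given in the sources used here, so counts of close copies and overlapping genes are uncertain. Of 25746 genes listed, 25712 were matched to an annotation of GRCm38, from which symbols and coordinates were taken.

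Counts were analysed with edgeR 4.0.16 in R 4.3.3. A gene was kept when 6 or more of the 24 libraries reached 0.66 CPM (12330 genes, of which 11940 autosomal). Library sizes were scaled by TMM, and the quasi-likelihood fit (robust option) took in the 24 libraries with the 4 group means as its terms. Contrasts tested were mKO minus fKO, mWT minus fWT, and the difference between them, with Benjamini-Hochberg adjustment over all 12330 genes. The fitting procedure was tested on simulated counts with known changes. Libraries within a group all differed pairwise beyond sampling noise (lowest chi-square per gene 8.19). CPM, ratios and floors use TMM-scaled library sizes, and genes with 0 to 3 reads in a group are given by their summed reads. Intervals and floors cover counting error only, since reads carry no molecular identifiers.

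Members and gene lists were chosen with earlier results of these data known. Genes were named as list members or as the 5 lowest p for the difference between the sex effects. Others were the 12 largest folds in each direction with at least 1 CPM, and the 5 largest CPM differences in each direction. The fold and CPM rules took only called genes without overlap, so that lack of overlap among them was set by the choice. Normalization, filters, DESeq2 1.42.0, a replicate block and leaving out each mouse were tried as alternatives. Promoters are RefSeq sequences of GRCm38.p6. Figures were drawn with matplotlib 3.10.9. Results for 1 gene and its family are not reported here.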

Additional observations from a re-analysis of the deposited data

Results flagged for a closer look

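In 1 gene the sex difference itself differed between the genotypes. For Zfp37 the log2 difference between males and females was larger in KO than in WT mice by 3.40 (SE 0.511, edgeR adjusted p = 0.00562), and each of the 6 mKO mice lay above each of the other 18 mice.

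Single mice stood apart from the other 5 of their group (a gap to the nearest mouse, as a share of the group's whole range, above Dixon's 95% critical value for 6 samples) in 37 of 373 groups looked at, 9.92%, where chance alone marks about 1 in 20 groups. These were groups of 175 genes, the library measures and the summed markers, and they are not independent of each other. Mouse fKO 4 was the one apart in 8 of them. It was highest for Sult2a1 (gap of 0.772 of the range, the same measure being given for the others, 81.9 CPM against 21.5 in the next mouse), Sult2a5 (0.645), Sult2a6 (0.646), Acot3 (0.719), Acot4 (0.652), Dcn (0.654) and Gm4788 (0.670), and lowest for Hba-a2 (0.646).

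Mouse mKO 1 was highest for Slco1a1 (0.694), Ugt2b35 (0.632), Ugt2b37 (0.649), Ugt2b38 (0.674) and the summed Kupffer cell markers (0.751), and lowest for Gsta3 (0.846). Mouse mKO 4 was highest for Cyp2u1 (0.740), Cyp7a1 (0.681), Ntrk2 (0.751), Sult2a6 (1, a single read) and the summed B cell markers (0.759), and lowest for Serpina3m (0.757).

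The acute phase genes Lcn2 (0.857, 33.1 CPM against 8.18 in the next mouse) and Orm2 (0.841) were highest in fKO 6, which was also lowest for Abcd2 (0.878) and highest for the acinar marker sum (0.672, at 0.526 CPM). Orm2 (0.679) and Scara5 (0.661) were highest in mKO 6. In fKO 5 the few reads of Moxd1 (1) and Obp2a (1) occurred and Baat was lowest (0.802). The others were Acot3 (0.652) and Hamp2 (0.686), highest in mKO 2, Slc22a26 (0.631), highest in mKO 5, Asns (0.692) and Nat8f5 (0.724), highest in fKO 1, and, in fKO 3, Me1 (0.657) and Tpst1 (0.642), both lowest, and the B cell marker sum (0.833), highest.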

How the results depend on the processing

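The counts of genes called within each genotype kept within 1.5 times their value under the alternatives that changed the normalization, the filter, the dispersions, the genes entered or the tool, with 734 to 979 genes higher and 730 to 941 lower in mKO, and 890 to 1185 higher and 951 to 1106 lower in mWT mice. Leaving out 1 mouse at a time gave 679 (without mKO 4) to 900 higher and 686 to 864 lower in mKO mice, 775 to 1057 higher and 800 to 1086 lower in mWT mice, and 1 gene each time for the difference between the sex effects. Requiring at least 2-fold left 137 higher and 204 lower in KO mice and 169 and 236 in WT mice. The difference between the sex effects gave 10 genes with DESeq2, 6 of them Mup genes with almost no reads in KO mice, 138 at an unadjusted p under 0.01, and 0 with the filter of the study applied word for word, under which Zfp37 was not tested. Elsewhere Zfp37 passed under all 34 alternatives with a value (adjusted p 4.29e-07 to 0.0323).

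Of 162 called genes that are named or on a list, 137 kept their call under all 36 alternatives, 25 lost it under at least 1, and 0 changed direction. The calls most often lost were those of Cpt2 (23 alternatives), Igf1 (18) and Orm2 (16), and most were lost without mKO 5 (17 genes) or mKO 4 (16 genes). The cause was not tested.

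Mice with the same replicate number in both sexes were not treated as pairs. Correlations of their deviations from the group means ran from −0.29 to 0.17 in KO and from −0.09 to 0.13 in WT mice. Such values cannot show whether same-numbered mice shared a litter, cage or day, since differently numbered mice were not compared. With the replicate number as a block, 818 genes were higher and 784 lower in mKO mice, 979 and 993 in mWT mice, and 1 gene passed for the difference between the sex effects. Of the 162 called genes followed, 12 lost their call under this block, among them Serpina3k, Serpina1e, Igf1, Me1, Irs2 and Bhlhe41.

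With 3 counts at up to 0.199 CPM, differences of genes below that level could not be seen.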
